A study of Mus musculus with 4 samples.

Results

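The enzymes that make serine, pass its carbon to folate and break down glycine were followed in the forelimb bud of mouse embryos labelled null for Shh, the gene of the signalling protein Sonic hedgehog. The set held 10 genes, taken by name from the 17712 genes of the deposited table: Phgdh, Psat1, Psph, Shmt1, Shmt2, Mthfd1, Mthfd1l, Mthfd2, Gldc and Amt. All 10 were in the table and all 10 passed the filter on low values, which 13224 genes passed. The set was chosen by pathway name with the CPM values of these genes in all 4 libraries, and their differences between the groups, already known. Those levels and differences are therefore given as a description, with calls counted beside those over all genes and no p-value for any enzyme.

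RNA sequencing libraries were compared from forelimbs of Shh null embryos and of wild-type littermates, with 2 libraries in each group. Both groups were labelled Swiss Webster, an outbred stock, with 33 to 35 somites, E10.25 in the age label and E10.5 in the source label. The labels neither describe the null allele nor state how many embryos went into a library. The design text calls the replicates technical and no label names separate animals, so the spread behind any p-value below may be a technical one between libraries.

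Serine is made from a glycolytic intermediate by Phgdh, Psat1 and Psph in turn. Serine hydroxymethyltransferase, encoded by Shmt1 for the cytosol and by Shmt2 for the mitochondrion, splits it into glycine and a single-carbon unit carried by folate. In mitochondria Mthfd2 oxidises that unit and Mthfd1l releases it as formate, which Mthfd1 returns to cytosolic folate for purine and thymidylate synthesis. The glycine cleavage system, with Gldc and Amt among its proteins, draws further units from glycine. These pathways are prominent in dividing cells, and loss of Gldc, Amt or Mthfd1l in mice is known for neural tube defects. By location, Shmt2, Mthfd1l, Mthfd2, Gldc and Amt form a mitochondrial group of 5 and Phgdh, Psat1, Psph, Shmt1 and Mthfd1 a cytosolic group of 5.

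The libraries held between 18456502 and 29620468 reads assigned to genes. The deposited values are CPM, counts scaled to a library size corrected by TMM (trimmed mean of M values), in which a single read was worth 0.0351 to 0.0551 CPM. Each of the 10 enzymes was measured with 438 to 10359 reads per library. Replicates were not repeats of the same library to within sampling error. The chi-square per degree of freedom was 15.7 between the Shh null libraries and 23.8 between the wild-type libraries, and 18.3 to 48.0 between libraries of different groups. Shh had 3.15 and 2.42 CPM in the Shh null libraries and 11.4 and 7.88 CPM in the wild-type libraries, so it was lower but not at 0. The labels do not say which part of the gene the allele removes. Gli1, a target gene of hedgehog signalling, had 0.249 and 0.366 CPM in Shh null and 16.6 and 16.0 CPM in wild type. The forelimb gene Tbx5 had between 61.5 and 80.2 CPM in the 4 libraries, and the hindlimb genes Tbx4 and Pitx1 had 3.11 to 4.53 CPM and at most 0.457 CPM. In bulk tissue, fewer cells of a type and less RNA per cell cannot be told apart.

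Most enzymes of the set were lower in Shh null forelimbs. All 10 had a negative log2 difference, Gldc and Mthfd2 the furthest from 0, while Amt, Psph and Shmt2 stayed above 90% of the wild-type mean. Differences are Shh null minus wild type on the scale of log2(CPM + 1), with the standard error of the limma fit over all tested genes. The median over the 10 enzymes was −0.45, against −0.00048 over the 13224 tested genes. In 9 of the 10 both Shh null libraries lay below both wild-type libraries, an order found in 25% of tested genes. The limma fit called 4 of the 10 lower (Shmt1, Mthfd1, Mthfd2 and Gldc) and 0 higher, at a Benjamini-Hochberg adjusted p under 0.05, beside 1.24% of tested genes called lower and 2.48% called in either direction. Without adjustment, 7 were lower and 0 higher at p under 0.05, beside 9.02% of tested genes lower and 9.5% higher. The edgeR quasi-likelihood test called 2 lower, beside 1.12% of tested genes, and DESeq2 called 6 lower, beside 2.06%, with 0 higher in both. Since the genes were named with these values known, nothing is read from these counts.

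**Figure D1:**
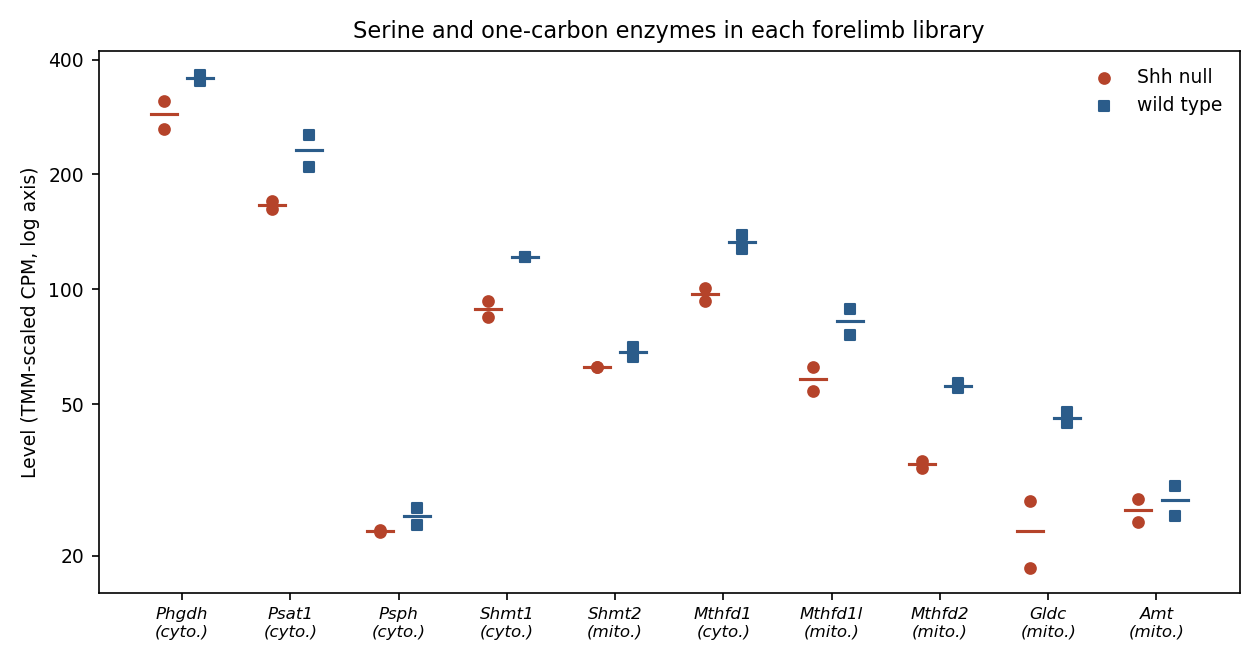
Levels of the 10 enzymes in TMM-scaled CPM on a log axis, with 1 point per library (circles, Shh null; squares, wild type; n = 2 each) and a line at each group's mean. For Gldc the Shh null points lie at 18.6 and 27.9 CPM and the wild-type points at 44.5 and 47.6 CPM, while the points of Amt overlap.

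The sequence just before the annotated starts was read for what the set shares beyond function. CCAAT, the core of the box bound by the factor NF-Y, was searched on both strands in 300 bases per start, 250 before it and 50 after it, in RefSeq windows of build GRCm38.p6. All 10 genes matched a window, and 8 held at least one CCAAT or its reverse complement ATTGG, against 41.1% of the 27025 genes with a window and 43.3% of the 9690 of them that were tested. Of 28 tested genes of the other metabolic lists with a window, 14 held it. A gene with more than 1 window was counted if any of them held the motif, and the motif was chosen after the windows had been read. The RefSeq starts of 6 of the 10 (Phgdh, Psat1, Psph, Shmt1, Mthfd2 and Amt) lie inside the GENCODE gene spans given with their values, by 8304 bases for Mthfd2 and 22278 for Psat1. The stretches below are the 100 bases before the start of the 4 enzymes called lower and of Shmt2, the form of serine hydroxymethyltransferase that stayed nearer to wild type, with CCAAT or ATTGG in capitals.
Mthfd2 (chr6:83317605-83317704, minus strand): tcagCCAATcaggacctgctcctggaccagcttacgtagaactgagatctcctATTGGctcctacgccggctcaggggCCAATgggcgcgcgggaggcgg
Gldc (chr19:30175442-30175541, minus strand): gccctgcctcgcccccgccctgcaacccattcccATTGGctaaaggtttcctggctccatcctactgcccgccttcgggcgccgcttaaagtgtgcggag
Shmt1 (chr11:60811266-60811365, minus strand): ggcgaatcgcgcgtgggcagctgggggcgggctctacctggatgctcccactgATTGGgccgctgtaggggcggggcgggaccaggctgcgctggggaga
Mthfd1 (chr12:76255132-76255231, plus strand): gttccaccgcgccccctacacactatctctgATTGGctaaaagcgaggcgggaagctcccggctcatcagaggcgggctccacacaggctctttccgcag
Shmt2 (chr10:127522445-127522544, minus strand): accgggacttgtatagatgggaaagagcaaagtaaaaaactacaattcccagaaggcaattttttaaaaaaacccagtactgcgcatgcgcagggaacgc

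Mthfd2 carried the motif at 3 places in this stretch, and Gldc, Shmt1 and Mthfd1 at 1 each. Psph and Amt, near their wild-type levels, held it, and Mthfd1l, at 70.8% of its wild-type mean, did not. TGATGNAA, the core of the element bound by ATF4 with its partners, was found in 0 of the 10 windows on either strand and in 4.51% of all genes with a window. GACCACCCA, the consensus of the GLI factors of hedgehog signalling, was likewise found in 0 of the 10 and in 0.289% of all genes with a window. CACGTG, the box bound by MYC and related factors, was found in 0 of the 10 and in 8.09% of all genes with a window. No match says only that these letters are not in these 300 bases.

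The enzymes of serine synthesis were measured first along the pathway. Phgdh, which encodes the dehydrogenase of the first step (chromosome 3, 98313170 to 98339990, minus strand, mm10), had 312 and 263 CPM in the Shh null libraries and 364 and 352 CPM in the wild-type libraries. Both Shh null values were the lower ones, but they lay further from each other than the gap of 40.2 CPM between the groups. The means were 287 ± 34.2 CPM in Shh null and 358 ± 8.29 CPM in wild type (SD, n = 2 each), a log2 difference of −0.32 ± 0.11 (SE). Psat1, the aminotransferase of the next step (chromosome 19, 15904678 to 15947337), had 162 and 170 CPM in Shh null against 209 and 253 CPM in wild type. Here the wild-type libraries were the ones that spread, and the Shh null mean was 72.0% of the wild-type mean (log2 difference −0.47 ± 0.11 SE). Psph, the phosphatase that releases serine (chromosome 5, 129765558 to 129787449), had 23.4 and 23.1 CPM in Shh null and 26.6 and 24.1 CPM in wild type. Its groups were 0.698 CPM apart, less than the SD of 1.77 CPM in wild type, and its log2 difference of −0.12 was about the size of its SE of 0.12.

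The cytosolic and mitochondrial forms of serine hydroxymethyltransferase stood at different distances from wild type, a contrast that was not tested. Shmt1 (chromosome 11, 60788104 to 60811718) had 84.6 and 93.3 CPM in the Shh null libraries and 122 and 121 CPM in the wild-type libraries. The groups were 27.9 CPM apart, and the log2 difference was −0.45 ± 0.10 (SE). Shmt2 (chromosome 10, 127517123 to 127522444) had 62.7 and 62.7 CPM in Shh null and 70.8 and 66.3 CPM in wild type. The mitochondrial form thus stood at 91.4% of its wild-type mean, with a log2 difference of −0.13 ± 0.10 (SE), and the cytosolic form at 73.3%. In annotation, exons of Shmt2, Shmt1 and Psph overlap exons of the genes Ndufa4l2, Smcr8 and Cct6a on the opposite strand. The strand setting of the counting is not given in the sources used here. Ndufa4l2 reached at most 0.842 CPM, whereas Cct6a averaged 562 ± 70.0 CPM in Shh null and 693 ± 27.3 CPM in wild type (SD, n = 2 each). Smcr8 averaged 40.6 ± 0.135 CPM in Shh null and 40.6 ± 6.26 CPM in wild type. Exons of Mthfd1 likewise overlap those of Gm47525 on the opposite strand, which was not among the genes measured.

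All members of the folate dehydrogenase family in the set were lower in both Shh null libraries. Mthfd1, the cytosolic enzyme with dehydrogenase, cyclohydrolase and synthetase activities (chromosome 12, 76255298 to 76319803), had 93.2 and 101 CPM in Shh null and 127 and 139 CPM in wild type. Mthfd1l, the mitochondrial formate-releasing synthetase (chromosome 10, 3973118 to 4167081), had 54.0 and 62.5 CPM in Shh null and 75.7 and 89.0 CPM in wild type. Their log2 differences, −0.45 ± 0.10 and −0.49 ± 0.12 (SE), differed by less than their errors. Mthfd2, the mitochondrial dehydrogenase and cyclohydrolase (chromosome 6, 83305691 to 83325908), had 35.5 and 34.0 CPM in Shh null, against 56.7 and 55.1 CPM in wild type. Its libraries agreed closely within each group, with an SD of 1.07 CPM in Shh null and 1.08 CPM in wild type, beside a gap of 19.6 CPM. The log2 difference was −0.67 ± 0.11 (SE), and 157 of the 13224 tested genes had a lower one.

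In the glycine cleavage system the glycine decarboxylase gene was the lowest of the set relative to wild type, while its partners stood closer to wild type. Gldc (chromosome 19, 30098447 to 30175429) had 18.6 and 27.9 CPM in the Shh null libraries and 44.5 and 47.6 CPM in the wild-type libraries. The Shh null mean of 23.2 ± 6.59 CPM was 50.5% of the wild-type mean of 46.1 ± 2.17 CPM (SD, n = 2 each). The log2 difference was −0.98 ± 0.17 (SE), with 69 tested genes lower, and it came to −0.70 when Shh null 1 was left out and to −1.26 when Shh null 2 was. Amt, the aminomethyltransferase (chromosome 9, 108296853 to 108302302), had 28.2 and 24.5 CPM in Shh null and 25.5 and 30.5 CPM in wild type. Its groups overlapped, and its log2 difference of −0.08 ± 0.14 (SE) turned positive when Shh null 2 was left out (0.015) and when wild type 2 was (0.044). The remaining proteins of the system come from Gcsh and Dld, which were not members of the set. Gcsh averaged 132 ± 0.486 CPM in Shh null and 158 ± 12.4 CPM in wild type, and Dld 162 ± 21.9 and 164 ± 15.7 CPM (SD, n = 2 each). Neither was called (limma, adjusted p = 0.213 and 0.938).

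**Figure D2:**
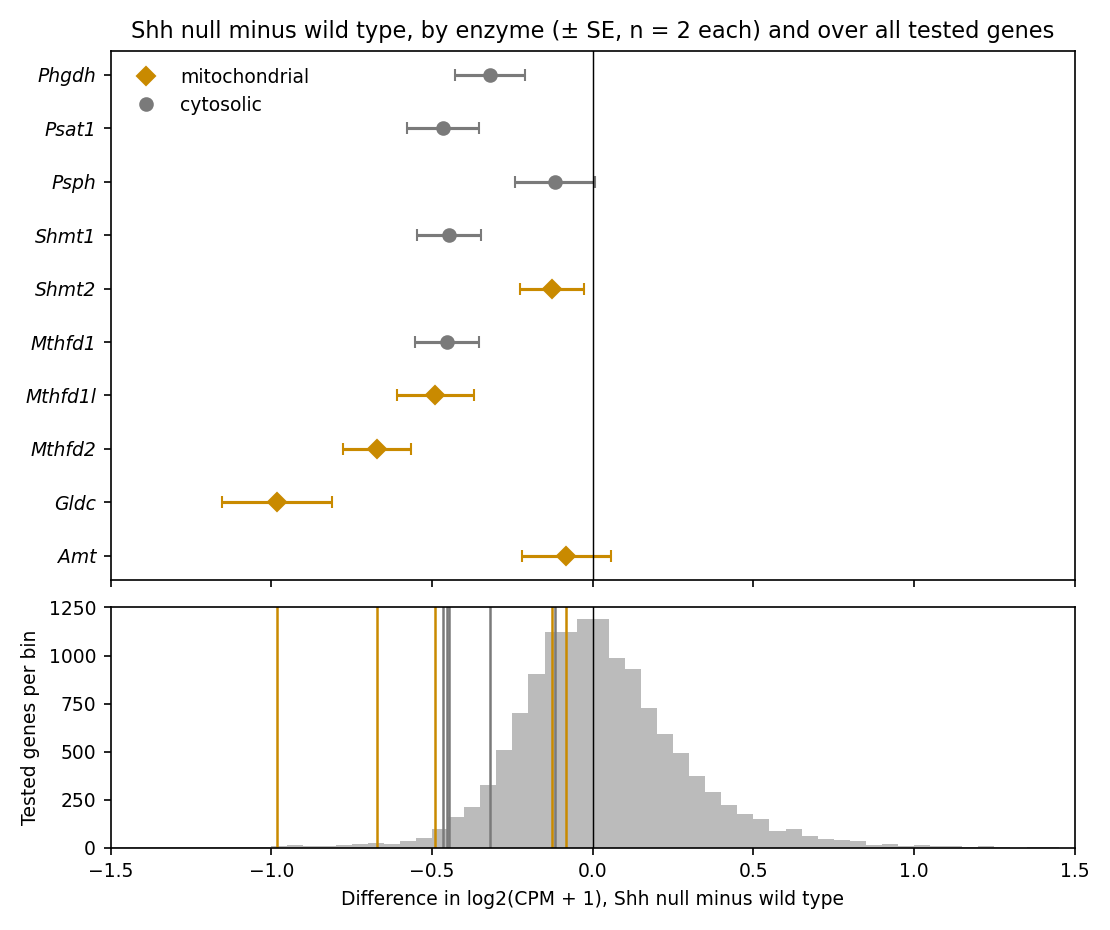
Difference in log2(CPM + 1), Shh null minus wild type, for each enzyme with its SE (top; diamonds, mitochondrial; circles, cytosolic; n = 2 libraries each), above the number of tested genes per bin of the same difference (bottom; coloured lines mark the enzymes, and genes beyond 1.5 in either direction are not drawn). The enzymes run from −0.98 (Gldc) to −0.08 (Amt), while all tested genes centre on −0.00048.

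The calls depended on single libraries, while the log2 differences of the called enzymes stayed negative. With single libraries left out, that of Mthfd2 ran from −0.70 to −0.64 and that of Gldc from −1.26 to −0.70. Shmt1 then ran from −0.52 to −0.38 and Mthfd1 from −0.51 to −0.39. With Shh null 1 left out, limma called 0 of the 10 enzymes in either direction, beside 0.31% of tested genes called lower. Without adjustment 7 were lower and 0 higher in that fit at p under 0.05, beside 4.83% of tested genes lower and 4.87% higher. With Shh null 2 left out it called 1, Gldc, beside 0.454% of tested genes. With wild type 1 left out it called 5, beside 1.42%, and with wild type 2 left out 3, beside 3.15%. The calls of Shmt1 and Mthfd1, close to the threshold, each ended under 8 of 14 alternative settings, and those of Mthfd2 and Gldc under 2 each. Fits with a library left out leave an arm with a single library, which is assumed to vary like the others. In the authors' deposited table all 10 enzymes had a negative log2 fold change. There 6 of them passed a false discovery rate of 0.05 (Psat1, Shmt1, Mthfd1, Mthfd1l, Mthfd2 and Gldc), beside 1.68% of the names in the authors' deposited table that were lower at that rate.

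Mitochondrial and cytosolic enzymes did not separate as groups by their log2 differences or by their summed shares. The 5 mitochondrial enzymes had a median log2 difference of −0.49 and a range from −0.98 to −0.08. The 5 cytosolic enzymes had a median of −0.45 and a narrower range, from −0.47 to −0.12. The difference of these medians was −0.04. It ranged from 0.013 without Shh null 1 to −0.16 without wild type 1 when single libraries were left out. The median level within a library is another measure, held in every library by Mthfd2 for the mitochondrial group and by Mthfd1 for the cytosolic group. In CPM the ratio of Mthfd2 to Mthfd1 was lower in both Shh null libraries, by a log2 change of −0.23. The within-library difference of median log2(CPM + 1) had a replicate spread of 0.116 (pooled SD over libraries). This contrast of levels was not tested. Summed over the enzymes, the mitochondrial group came to 199 and 212 CPM in Shh null and 273 and 289 CPM in wild type, and the cytosolic group to 675 and 651 CPM in Shh null and 848 and 889 CPM in wild type. The mitochondrial share of the level per kilobase of exon was 21.3% and 22.9% in the Shh null libraries and 22.0% and 22.4% in the wild-type libraries. These shares overlapped. Within the set both groups held enzymes below wild type and enzymes close to it. The furthest below, Gldc at 50.5% and Mthfd2 at 62.1% of the wild-type mean, were mitochondrial. Shmt2 at 91.4% and Amt at 94.1% were mitochondrial too, and the lowest cytosolic enzyme was Psat1 at 72.0%.

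Ratios between enzymes within a library do not depend on how the libraries were scaled, and they did not differ between the groups in 1 direction. The ratio of Shmt2 to Shmt1 in CPM was 0.741 and 0.672 in the Shh null libraries and 0.582 and 0.547 in the wild-type libraries. It was higher in both Shh null libraries, toward the mitochondrial enzyme. The ratio of Mthfd2 to Mthfd1 was 0.381 and 0.338 in Shh null and 0.445 and 0.398 in wild type, toward the cytosolic enzyme. The ratio of Mthfd1l to Mthfd1 was 0.580 and 0.622 in Shh null and 0.593 and 0.641 in wild type, and the groups overlapped. The ratio of Gldc to Amt, both mitochondrial, was 0.659 and 1.14 in Shh null and 1.75 and 1.56 in wild type. These groups did not overlap, although the Shh null libraries were far from each other. With 2 libraries against 2 and pairs chosen with the values known, no test of these ratios was made.

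**Figure D3:**
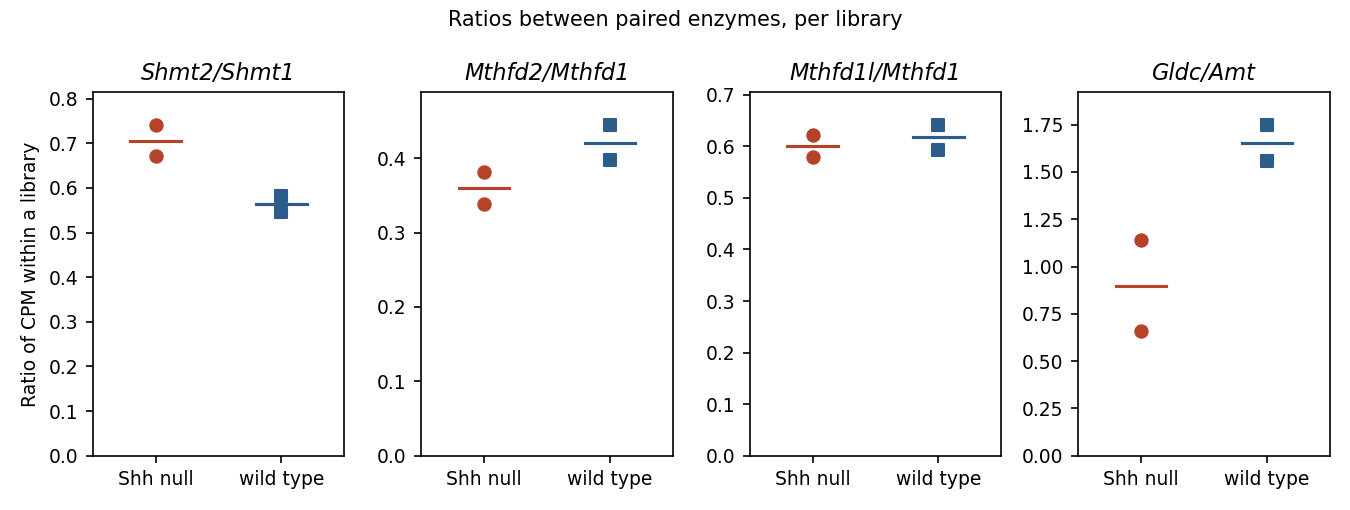
Ratio of CPM between paired enzymes within each library (circles, Shh null; squares, wild type; lines, means of n = 2), with every axis starting at 0. The Shmt2/Shmt1 ratio averages 0.706 in Shh null and 0.564 in wild type, the Mthfd2/Mthfd1 ratio 0.359 in Shh null and 0.421 in wild type, and the Gldc/Amt ratio 0.898 in Shh null and 1.65 in wild type.

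Levels were compared between genes per kilobase of the union of annotated exons. Phgdh stood highest, at 116 ± 13.8 CPM per kilobase in Shh null and 144 ± 3.34 in wild type (SD, n = 2 each), followed by Psat1 at 39.1 ± 1.32 in Shh null and 54.3 ± 7.34 in wild type. In wild type Shmt1 (31.3 ± 0.06) and Mthfd1 (30.0 ± 1.79) came next and lay within their spread of each other. Shmt2 (22.0 ± 1.03), Mthfd1l (18.6 ± 2.12), Mthfd2 (16.0 ± 0.31) and Amt (11.5 ± 1.46) followed in wild type, with Gldc (7.56 ± 0.36) and Psph (5.86 ± 0.41) lowest. By exon union, the order in Shh null changed where Mthfd2, at 9.96 ± 0.31 CPM per kilobase, came level with Amt at 10.8 ± 1.07, and where Gldc, at 3.82 ± 1.08, passed below Psph at 5.38 ± 0.05. The places of Psph and Mthfd2 rest on the length used. Per kilobase of the median coding transcript, Psph had 18.5 ± 0.16 CPM in Shh null and 20.2 ± 1.41 in wild type, above Amt and Gldc. On that length Mthfd2 stood above Amt in both groups, at 16.7 ± 0.51 against 12.7 ± 1.25 CPM per kilobase in Shh null and 26.8 ± 0.52 against 13.4 ± 1.71 in wild type, and in wild type it also stood above Mthfd1l (22.4 ± 2.57).

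Around the set, 47 further genes of serine, glycine, folate, methionine and purine metabolism were listed from textbook knowledge. These and the further lists below were drawn up with earlier results of these data known, so their counts and p-values are descriptive. Of the 47 genes, 45 were in the table and 37 were tested. The limma fit called 2 lower, 0 higher and 35 not, beside 1.24% of tested genes called in each direction. Without adjustment 13 were lower and 1 higher at p under 0.05, beside the 9.02% and 9.5% of tested genes, and edgeR and DESeq2 also called 0 higher. The median log2 difference of the 37 was −0.16, with 24 below and 13 above 0.

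Both called genes encode plasma membrane carriers of neutral amino acids. Slc1a4, a carrier of serine and alanine, had 18.5 and 19.9 CPM in the Shh null libraries and 32.6 and 31.7 CPM in the wild-type libraries. It fell by 0.72 ± 0.12 on the log2 scale (SE; limma, adjusted p = 0.0161). Slc1a5, best known as a glutamine carrier, had 24.4 and 25.3 CPM in Shh null against 37.3 and 41.2 CPM in wild type, and fell by 0.64 ± 0.12 (SE; adjusted p = 0.0230). Both calls ended when Shh null 1 was left out (adjusted p = 0.183 and 0.221) and when Shh null 2 was (0.0767 and 0.103), and that of Slc1a5 also with no filter on low values (0.0504), while the log2 differences stayed between −0.77 and −0.57 with any library left out.

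In purine synthesis, which uses folate-bound carbon, 0 of the 6 tested genes were called by limma or edgeR, and DESeq2 called 1 lower. Without adjustment, 4 were lower in limma at p under 0.05, beside 9.02% of tested genes. All 6 had both Shh null libraries below both wild-type libraries, an order found in 25% of tested genes. Ppat, the entry enzyme, averaged 182 ± 17.2 CPM in Shh null and 249 ± 0.570 CPM in wild type (SD, n = 2 each). Its adjusted p was 0.0501 in limma and 0.0586 in edgeR, and it was the gene called lower by DESeq2 (0.00787). The log2 difference of Ppat ran from −0.55 to −0.36 with single libraries left out. Adsl averaged 130.0 ± 0.214 CPM in Shh null and 164 ± 1.52 CPM in wild type (adjusted p = 0.0968). The 10 tested genes of folate interconversion lay around 0, with a median log2 difference of 0.00039, and 0 were called by limma, edgeR or DESeq2, with 1 lower and 0 higher at p under 0.05 without adjustment. Aldh1l2, a mitochondrial enzyme that oxidises formyl-folate, averaged 4.26 ± 1.24 CPM in Shh null and 2.76 ± 0.622 CPM in wild type (SD, n = 2 each; limma, adjusted p = 0.279).

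For folate uptake, the reduced folate carrier Slc19a1 averaged 12.5 ± 0.886 CPM in Shh null and 17.4 ± 1.04 CPM in wild type, and the mitochondrial folate carrier Slc25a32 12.9 ± 0.865 and 15.7 ± 0.575 CPM (SD, n = 2 each; limma, adjusted p = 0.135 and 0.355). In the methionine cycle Mat2a, which makes S-adenosylmethionine, averaged 393 ± 6.75 CPM in Shh null and 530.4 ± 52.1 CPM in wild type. It was not called by limma (adjusted p = 0.0695) or edgeR (0.0802), but was called lower by DESeq2 (0.0104). Its log2 difference ran from −0.53 to −0.33 with single libraries left out. Cth, the cystathionine lyase, averaged 30.3 ± 0.068 CPM in Shh null and 40.3 ± 0.596 CPM in wild type (adjusted p = 0.0952). Sardh of choline oxidation averaged 1.95 ± 0.289 CPM in Shh null and 1.58 ± 0.343 CPM in wild type (adjusted p = 0.640). Of the enzymes of serine breakdown, Srr averaged 10.1 ± 0.302 CPM in Shh null and 9.47 ± 1.40 CPM in wild type, and Sdsl 0.982 ± 0.0988 CPM in Shh null and 1.07 ± 0.123 CPM in wild type (adjusted p = 0.797 and 0.899).

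Several of the enzymes are known targets of ATF4, the transcription factor of the amino acid stress response. Atf4 itself averaged 195 ± 1.29 CPM in Shh null and 249 ± 28.7 CPM in wild type (SD, n = 2 each; limma, adjusted p = 0.127). Its target Asns, asparagine synthetase, averaged 95.7 ± 8.48 CPM in Shh null and 134 ± 14.2 CPM in wild type (limma, adjusted p = 0.0594). It was not called by edgeR (0.0624) but was called lower by DESeq2 (0.0119). Sesn2, another target, averaged 11.6 ± 2.49 CPM in Shh null and 8.34 ± 0.265 CPM in wild type (limma, adjusted p = 0.245). Of the 5 tested genes of this list limma and edgeR called 0 and DESeq2 1 lower, and without adjustment 1 was higher and 2 were lower at p under 0.05.

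**Figure D4:**
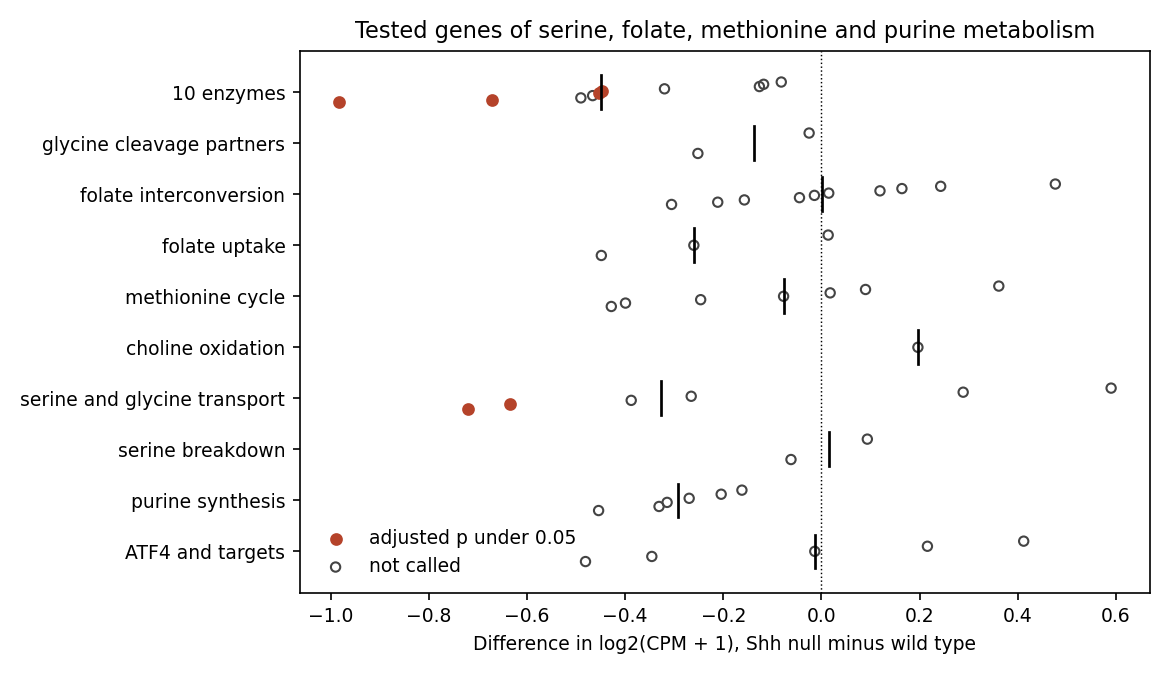
Difference in log2(CPM + 1), Shh null minus wild type, of the tested genes of each list, with 1 point per gene, filled where the limma adjusted p was under 0.05, and a black line at each list's median. The line of the 10 enzymes lies at −0.45, that of purine synthesis at −0.29 and that of folate interconversion at 0.00039.

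The profile of Gldc, the enzyme with the largest difference, was compared with all other tested genes over the 4 libraries by Euclidean distance between centred log2(CPM + 1) values. The nearest were Kcne3, a potassium channel subunit gene (distance 0.115), Vwde (0.132) and Sall4, a zinc finger transcription factor gene (0.137). Kcne3 had 11.6 and 18.9 CPM in Shh null and 29.4 and 29.1 CPM in wild type. Sall4 had 5.60 and 7.82 CPM in Shh null and 14.6 and 15.6 CPM in wild type. Vwde had 1.91 and 2.93 CPM in Shh null and 5.02 and 5.51 CPM in wild type. In all 3, as in Gldc, Shh null 1 was the lowest library, which follows from picking them for a profile like that of Gldc. The likeness rests on 4 libraries.

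Markers of other cell types were measured beside these differences. The 6 erythroid markers summed to 3728 and 6333 CPM in the Shh null libraries and to 10981 and 2941 CPM in the wild-type libraries. These groups overlapped. The 10 enzymes summed to 874 and 862 CPM in Shh null and 1122 and 1178 CPM in wild type. The 7 surface ectoderm markers summed to 316 and 332 CPM in Shh null and 286 and 287 CPM in wild type, with 0 called by limma, edgeR or DESeq2 and 2 higher at p under 0.05 without adjustment. The 5 macrophage markers, 4 of them in the table, summed to 14.9 and 13.1 CPM in Shh null and 6.84 and 7.22 CPM in wild type. Cx3cr1 was called higher, and all 3 tested ones were higher at limma p under 0.05 without adjustment, beside 9.5% of tested genes. The 5 endothelial markers summed to 177 and 181 CPM in Shh null and 147 and 201 CPM in wild type, and the 5 myogenic markers to 109 and 110 CPM in Shh null and 92.2 and 98.8 CPM in wild type. The 5 neural markers summed to 15.3 and 13.2 CPM in Shh null and 15.0 and 13.4 CPM in wild type. Among them Sox2 was at 0 in both Shh null libraries, but had only 6 and 1 reads (0.211 and 0.0551 CPM) in wild type. It did not pass the filter on low values. The 5 limb mesenchyme markers summed to 772 and 715 CPM in Shh null and 539 and 575 CPM in wild type. Most of each sum was Prrx1, at 654 and 613 CPM in Shh null and 431 and 468 CPM in wild type. Prrx1 was called higher, and Fgf10, at 14.2 and 14.6 CPM in Shh null and 24.8 and 30.2 CPM in wild type, lower. All 5 sex-linked genes were called, with the 4 Y-linked ones lower in Shh null and Xist higher, at 522 and 468 CPM in Shh null and 225 and 152 CPM in wild type. Ddx3y, one of the Y-linked genes, had 39.1 and 42.3 CPM in Shh null and 119 and 106 CPM in wild type. All 4 libraries thus held reads of both Xist and Y-linked genes, so none came from embryos of a single sex. The part of cell makeup and of embryo sex in the enzyme differences was not tested.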

How the data were processed

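Total RNA from forelimbs was extracted with TRIzol and sequenced on Illumina libraries, per the labels' protocols. The submitters' processing notes name TopHat2 2.0.9, SAMtools, HTSeq 0.5.4p5, edgeR 3.4.2 and build mm10. What each tool did, which annotation was counted and with which strand setting is not given in the sources used here. The authors deposited normalized counts, a signal value per gene and library. Every value was a whole multiple of its column's smallest positive value (100% within 0.001 reads), so whole reads were recovered. The other table held the authors' log2 fold changes with p-values and false discovery rates, per the file headers, and is quoted only where named.

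Genes with at least 1 CPM in at least 2 libraries were fitted as log2(CPM + 1) with limma 3.58.1 (intensity trend, genotype only; R 4.3.3) and adjusted by Benjamini-Hochberg over all 13224 tested genes. The fits were checked on simulated counts, with the pass mark set on changes larger than those of the enzymes. The recovered reads were also tested with edgeR 4.0.16 (quasi-likelihood) and DESeq2 1.42.0. A count of 0 allows up to 3 reads, 0.105 to 0.165 CPM, for counting error only. Coordinates and exon lengths are from GENCODE M21 (mm10), promoter windows from RefSeq (GRCm38.p6). The members and lists were chosen with earlier results of these data known. Named beside the 10 enzymes were called genes of the metabolic lists, or in lists with none the 2 with the largest change, and the 3 genes nearest to the enzyme with the largest change; called markers were named after their values were seen. Of the lists, Mat1a, Bhmt and Adgre1 were not matched. One gene that this rule names is not reported here.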

Additional observations from a re-analysis of the deposited data

How the results depend on the processing

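Over 14 alternatives, 12 of them planned and the crossed pairing and unfiltered edgeR added after seeing the data, 0 enzymes were called higher. The number called lower was 4 with limma, 2 with edgeR, 6 with unfiltered edgeR (1.27% of tested genes called lower), 6 with DESeq2, 2 with a pseudocount of 0.25 (1.19%), 2 with quantile normalization (0.945%), 1 with no filter on low values (0.514%), and 0 to 5 with a library left out. Of the other metabolic genes 2 were called lower, but 5 with DESeq2 and 1 with no filter. The difference between the mitochondrial and cytosolic medians ran from −0.16 to 0.013 with a library left out. The log2 difference of Amt then ran from −0.21 to 0.044, that of Dld from −0.16 to 0.11 (0.063 with quantile normalization) and that of Srr from −0.043 to 0.23. Of the 31 genes run under the alternatives, the others kept their sign; the cause was not tested.

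The labels number the libraries 1 and 2 in both groups but tie the numbers to nothing, and deviations of same-numbered libraries correlated at −0.20 across genes. With the replicate block, limma called 3 enzymes and 2 other metabolic genes lower among 396 calls (1.33% of tested genes lower). With the numbers crossed, it called 7 enzymes lower, and 11 other metabolic genes lower and 1 higher, among 1386 calls (5.63% of tested genes lower and 4.85% higher).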
